A study of Saccharomyces cerevisiae with 72 samples.

Results

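Ume6 ChIP-seq gave 529 peaks that lay between 2 genes transcribed away from each other, out of 2039 peaks in the list of the first replicate. A peak was taken when the second and the third replicate each had a summit within 100 bp of its own summit, when that summit lay outside every annotated gene, and when the nearest gene on its left was on the minus strand and the nearest on its right on the plus strand. Of 1562 peaks found in all 3 lists, 501 lay between tandem genes, 495 inside a gene, 26 between convergent genes and 11 beyond the last gene of a chromosome or contig. The 529 peaks fell into 431 distinct gaps between divergent genes and so flanked 862 genes. The SK1 annotation has 1437 such divergent pairs, of which 873 held no Ume6 summit in any list and 133 held a summit that did not meet the rule. The places of the peaks and the calls of expression came from separate experiments, so the expression values below were not used to choose the peaks.

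All strains were diploid *Saccharomyces cerevisiae* of the SK1 background, and in all of them *IME1* and *IME4* were put under the copper-inducible *CUP1* promoter. Ume6 carried a 3V5 tag in the ChIP strain, UB3301, which was grown to saturation in acetate medium, with 3 immunoprecipitations each compared with its input. The binding values therefore describe cells before meiotic induction. RNA-seq was made in a T99N strain (UB22629, *ume6* with the T99N substitution, 3V5 tag) and in wild-type *UME6* cells (UB20649, 3V5 tag), at 0, 2, 3 and 4 h in sporulation medium (SPO) with 3 libraries at each time, and 50 µM CuSO4 was added after 2 h. These strains also differ in their *IME4* construct, so that a difference between them cannot be told apart from that change. TL-seq, which reads the 5′ ends of capped transcripts, came from UB14584 (no tag on Ume6 listed) at 4 h (meiotic prophase) and 2 h (premeiotic), with replicates 1, 3 and 5, and RNA-seq of the same strain from replicates 4 and 5. Nothing says that libraries of 1 group came from separate cultures, so p-values measure only the spread between these libraries.

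Ume6 is a zinc-cluster protein that binds the URS1 element. In mitotic cells it recruits the Sin3-Rpd3 histone deacetylase and the Isw2 remodeler and keeps early meiotic genes silent, and in meiosis it binds the activator Ime1 and takes part in turning the same genes on. The T99N substitution weakens its contact with Ime1. Between divergent genes a URS1 element has a transcription start on either side, so that binding can be set against the transcripts of 2 genes at a time. A long undecoded transcript isoform (LUTI) is an mRNA that starts at a promoter upstream of the usual one and runs through the coding sequence (CDS) without being translated into the protein efficiently.

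The stretches below show what lies under Ume6 at the 2 most enriched gaps (AGP1/KCC4 and PRX1/KIP1), at 3 gaps in which both genes rose in meiotic prophase (YIG1/CSM4, SPO22/HOP1 and MRX7/MER1) and at 1 gap whose genes are both LUTI loci (HSP60/LCB5). They were read from the RefSeq S288C genome (build R64), plus strand, 5′ to 3′, since the peaks are placed on SK1. Their places are chrIII:78535-78674, chrII:101309-101404, chrXVI:171243-171338, chrIX:226386-226481, chrXIV:250776-250871 and chrXII:665201-665296, all between genes and outside coding sequence. Capitals mark the long URS1 form TCGGCGGCT where it occurs on either strand (AGCCGCCGA is its reverse complement) and otherwise the core GGCGGC.
AGP1/KCC4: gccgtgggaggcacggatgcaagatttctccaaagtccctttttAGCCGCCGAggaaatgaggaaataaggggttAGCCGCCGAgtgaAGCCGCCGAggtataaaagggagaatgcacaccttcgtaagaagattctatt
PRX1/KIP1: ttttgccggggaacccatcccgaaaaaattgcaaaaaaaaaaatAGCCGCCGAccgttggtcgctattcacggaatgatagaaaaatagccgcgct
YIG1/CSM4: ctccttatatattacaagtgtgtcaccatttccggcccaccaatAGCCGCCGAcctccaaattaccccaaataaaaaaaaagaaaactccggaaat
SPO22/HOP1: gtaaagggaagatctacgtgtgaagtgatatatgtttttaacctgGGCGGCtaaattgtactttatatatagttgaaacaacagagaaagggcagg
MRX7/MER1: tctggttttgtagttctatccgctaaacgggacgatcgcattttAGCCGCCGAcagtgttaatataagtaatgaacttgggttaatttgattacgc
HSP60/LCB5: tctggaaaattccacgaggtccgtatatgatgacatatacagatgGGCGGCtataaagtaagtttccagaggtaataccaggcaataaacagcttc
The most enriched gap holds 3 long elements within its stretch, all on the minus strand, and each of the other 5 stretches holds 1 element. At *HOP1* and *HSP60* the match is to the core only, on the plus strand, and the SPO22/HOP1 gap also holds 1 long element outside the stretch shown.

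In these 6 gaps the element and the summit lay within 50 bp of each other when both were measured from the gene on the left. The element nearest to the summit of AGP1/KCC4 was 663.5 bp from the start codon of *AGP1* in S288C, and the summit was 671 bp from it in SK1. At PRX1/KIP1 the distances were 200.5 bp and 213 bp, and at MRX7/MER1 they were 508.5 bp and 511 bp. They were farthest apart at SPO22/HOP1, with 479.5 bp and 430 bp. Over all pairs, 353 of 431 were neighbours in the S288C annotation too, and 136 of those gaps (38.5%) held at least 1 core, against 16 of 796 gaps (2.01%) of divergent pairs with no Ume6 summit. Of these S288C gaps, those with peaks were longer (median 803 bp, against 362 bp), but cores per kb also differed, at 0.448 and 0.0425. The share with a core was 16.3% where the mean fold enrichment was under 4, 23.2% from 4 to 10, 45.2% from 10 to 30 and 73.97% above 30 (54 of 73 gaps). The long form occurred in 23 gaps with a peak, 15 of them above 30-fold, and in none of the 796 gaps without a summit. A match is only a match of letters, and a gap without these letters is not thereby shown to lack a binding site.

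For 316 pairs the gap had the same length in SK1 and S288C within 20 bp, and 125 of these had a core. The distances of the nearest core and of the summit from the left gene differed by a median of 23.5 bp, and by 50 bp or less in 87 of 125. The median difference was 62.5 bp below 4-fold (7 gaps) and 17 bp above 30-fold (48 gaps).

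**Figure D1:**
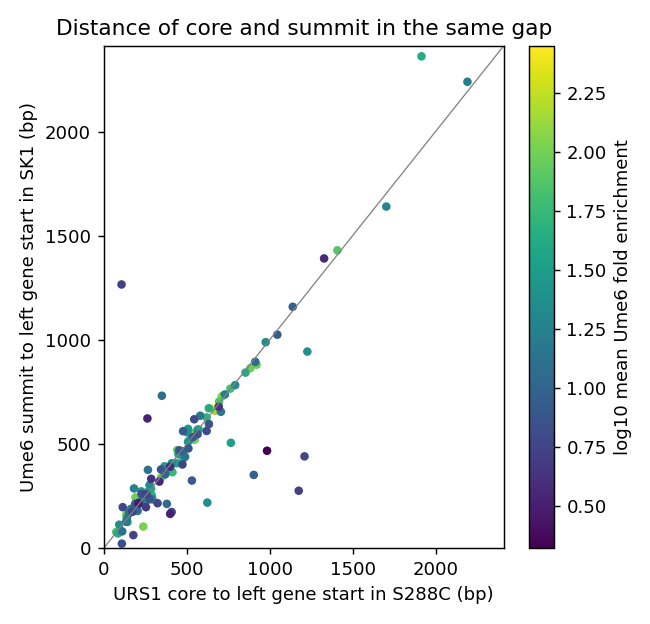
Each point is 1 of 125 divergent gaps of like length in SK1 and S288C. The x axis gives the distance in bp of the URS1 core GGCGGC from the start of the left gene in S288C, the y axis the distance of the Ume6 summit from the same start in SK1, colour the log10 of the mean fold enrichment, and the line equal distances. Most points lie near the line (87 of 125 within 50 bp).

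In the promoter windows of RefSeq (250 bases before to 50 after each gene's start), the core was found in 308 of 6001 windows of all genes (5.13%). It was found in 104 of 847 windows of genes flanking a peak (12.3%), against 23 of 1700 (1.35%) of genes in divergent pairs with no summit. Where the summit lay within 250 bp of the gene's start the count was 75 of 240 (31.3%). Above 30-fold the share was 18.7% by window and 73.97% by gap, which also holds elements farther from the gene.

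The fold enrichment over input, the height of a peak at its summit as macs2 gave it, spanned 2.096 to 282 (median 7.93, mean of 3 replicates). The medians of the 3 replicates were 7.68, 8.30 and 7.71, and the coefficient of variation of a peak over the replicates had a median of 17.5%. Peaks between tandem genes had a median of 7.35, peaks inside genes 5.14 and peaks between convergent genes 5.65. The order of the 529 peaks was alike in replicates 2 and 3 (Spearman's ρ 0.97) and less so between replicate 1 and the others (0.86 and 0.84), where the points are peaks of the same 3 libraries. For 25 peaks the highest value was over 3 times the lowest, and in all 25 the lowest was that of replicate 1. The enrichment at NDJ1/ITR2 was 8.08, 64.5 and 76.1 in replicates 1, 2 and 3, at MBA1/PCH2 4.16, 35.8 and 37.3, and at MIG1/HOP2 4.41, 22.4 and 29.5. Below, 3 values in brackets after a pair are its fold enrichments in replicates 1, 2 and 3.

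Ume6 summits lay a median of 290 bp from the start codon of the nearer gene and 672 bp from the farther one. Of 781 flanking genes with a TL-seq cluster, 775 had it downstream of the summit, at a median of 314.5 bp from it. Of the 431 gaps, 350 held 1 peak and 81 held 2 or more. At the edge of the 100 bp rule, the peaks of POR1/VAC7, FLO9/GDH3 and COR1/ECM13 were just inside with a farther summit at 91, 90 and 88 bp. Their fold enrichments in replicate 1 were 5.77, 2.71 and 2.35, and those of VMA6/RPL6B, MEK1/TFB6 and RET1/PTP2, just outside at 106, 109 and 120 bp, were 6.12, 5.70 and 2.69.

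**Figure D2:**
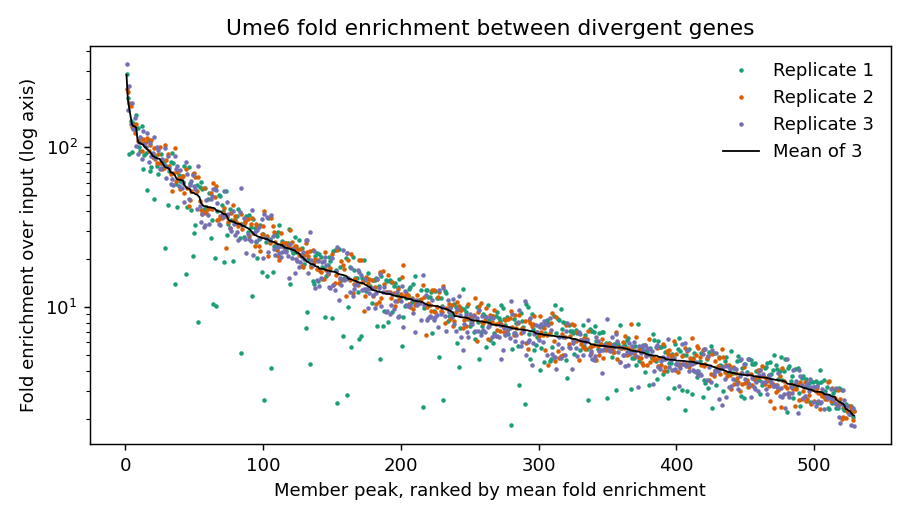
The 529 peaks are ranked by their mean on the x axis, and the y axis (log scale) gives the fold enrichment over input in each of the 3 replicates, with the mean as a line. The mean runs from 282 to 2.096, and the points far below the line are mostly of replicate 1.

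The libraries were checked before expression was compared. The RNA-seq libraries of the T99N strain held 5013206 to 10368419 reads in features, those of wild-type *UME6* 9087102 to 20865934, those of UB14584 3124472 to 4845107, and the TL-seq libraries 3195012 to 8243174 reads in clusters. The ChIP libraries were down-sampled to a common number of reads before peaks were called. *IME2*, an early meiotic kinase gene, had 381, 431 and 477 CPM at 4 h and 265, 455 and 476 CPM at 2 h in T99N, and 4580, 4398 and 3878 CPM at 4 h and 235, 174 and 201 CPM at 2 h in wild type (CPM are counts scaled to a common library size, with TMM factors). *NDT80*, the regulator of middle meiosis, had between 31.2 and 49.5 CPM at 4 h in wild type. In TL-seq of UB14584 its start had 802, 697 and 146.5 normalized reads at 4 h and 0, 0 and 0 at 2 h. T99N replicate 1 at 2 h stood apart: before copper, *IME1* had 1870, 74.5 and 91.2 CPM in T99N replicates 1, 2 and 3 at 2 h, against 111, 85.02 and 59.1 CPM in wild type. At 4 h *IME1* had 5309, 5823 and 5610 CPM in T99N and 2885, 2514 and 3944 CPM in wild type. Wild-type replicate 1 stood apart at *SPS4*, a middle meiosis marker beside a peak, which had 309.6, 9.47 and 14.6 CPM at 4 h and 187, 2.97 and 2.90 CPM at 2 h in wild-type replicates 1, 2 and 3. Counts per gene do not show the T99N substitution itself. In bulk RNA, fewer cells with a transcript and less of it per cell cannot be told apart. Scaling matters too: the median change of all genes in wild type was 0.02 on the log2 scale with TMM and 0.41 with library totals alone, and the changes below are on the TMM scale.

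In T99N, 73 of 847 flanking genes were higher at 4 h than at 2 h (8.62%) and 139 were lower (16.4%) in edgeR's quasi-likelihood test at an adjusted p under 0.05, against 9.77% and 11.1% of all 5486 features. In wild-type *UME6*, 278 of the 847 were higher (32.8%) and 321 lower (37.9%), against 32.3% and 30.8% of all features, so that the share that rose was near the background and the share that fell was above it. The median log2 fold change in wild type was -0.09, and 0.02 over all features. Among genes of divergent pairs with no Ume6 summit, 31.9% of 1706 rose in wild type and 25.4% fell. The T99N counts rest on few libraries: they were 3 and 17 without replicate 2 of every group, 6 and 17 without replicate 3, and 111 and 195 without T99N replicate 1 at 2 h alone. Over all features the counts fell too, to 8 and 78 of 5484 without replicate 2 and 24 and 93 of 5487 without replicate 3. T99N calls of single genes below share this limit. They were followed without single replicates only for 7 recombination and synapsis genes. With library totals alone, the split was 43 higher and 95 lower in T99N (5.08% and 11.2%, against 3.48% and 6.49% of all features). In wild type it was then 378 higher and 208 lower (44.6% and 24.6%), against 46.0% and 16.4% of all features, which moved with the scaling as the flanking genes did. Without replicate 1 of every group, 255 rose and 336 fell in wild type (30.1% and 39.7%, against 30.7% and 30.1% of all features).

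The test of the difference between strains (the 4 h to 2 h change in T99N minus that in wild type) called 209 genes higher in T99N (24.7%) and 193 lower (22.8%), against 18.2% and 17.5% of all features. For this test, higher or lower in T99N refers to the change and not to the level at 4 h. For genes of divergent pairs without a summit the shares were 12.4% and 15.8%. Without replicate 2 the counts were 115 and 114, without replicate 3 they were 134 and 123, and with library totals alone 112 and 285 (13.2% and 33.6%). Over all features the shares were 9.35% and 8.24% without replicate 2, 10.9% and 9.06% without replicate 3, and 7.38% and 28.4% with library totals alone. In UB14584, 266 of 839 flanking genes rose and 290 fell at 4 h, against 26.6% and 26.8% of all features. In TL-seq (limma, adjusted p under 0.1), 202 of 781 flanking genes had a gene cluster that rose (25.9%) and 256 had a cluster that fell (32.8%), against 24.6% and 23.8% of all 5114 clusters.

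The direction varied with the height of the peak. Beside peaks above 30-fold, 19 of 170 genes rose in T99N (11.2%) and 22 fell (12.9%), near the 9.77% and 11.1% of all features. In wild type 82 of the 170 rose (48.2%) and 48 fell (28.2%), against 32.3% and 30.8% of all features. Their median log2 fold change in wild type was 0.34. From 10- to 30-fold the wild-type shares were 34.7% and 34.3%, from 4- to 10-fold 24.9% and 44.8%, and below 4-fold 28.0% and 40.7%. Beside the highest peaks the test of the difference called 68 of 170 genes lower in T99N and 28 higher. UB14584 gave 88 of 169 genes higher beside these peaks (52.1%) and 42 lower, and TL-seq 58 of 161 higher and 50 lower. Spearman's ρ of fold enrichment against the log2 fold change was 0.08 in T99N and 0.19 in wild type for the nearer gene of a pair (n = 422), and 0.00 and 0.11 for the farther gene (n = 425), over genes that share cells and libraries. These are weak relations: at the same height of binding, genes rose in some gaps and fell in others.

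**Figure D3:**
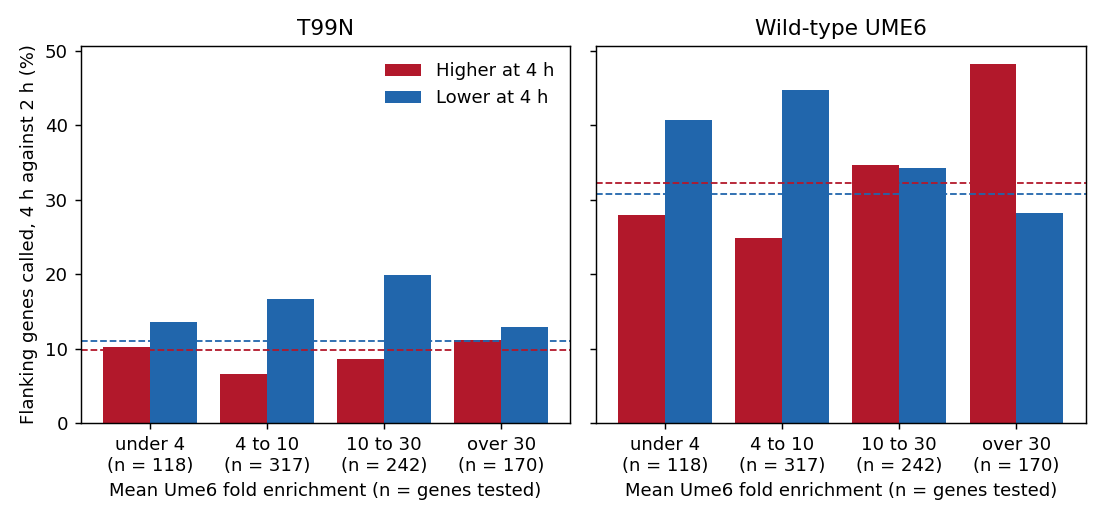
Bars give the share (%) of flanking genes called higher or lower at 4 h against 2 h in T99N (left) and wild type (right), in 4 classes of mean Ume6 fold enrichment, and dashed lines give the shares over all 5486 features. No bar of higher genes exceeds 11.2% in T99N, and in wild type that bar reaches 48.2% above 30-fold.

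The distance from the summit to the start codon also went with the direction. Of 240 genes whose start lay under 250 bp from the summit, 37 rose in T99N (15.4%) and 23 fell (9.58%). In wild type 118 of these genes rose (49.2%) and 49 fell (20.4%). Over all features the shares were 9.77% and 11.1% in T99N and 32.3% and 30.8% in wild type. From 250 to 500 bp the wild-type counts were 64 and 117 of 262 (24.4% and 44.7%). They were 67 and 111 of 243 from 500 to 1000 bp (27.6% and 45.7%), and 29 and 44 of 102 beyond 1000 bp (28.4% and 43.1%). TL-seq gave 94 higher and 42 lower of 231 genes under 250 bp (40.7% and 18.2%). From 500 to 1000 bp it gave 45 and 97 of 222 (20.3% and 43.7%), against 24.6% and 23.8% of all clusters. In wild type 143 of 422 nearer genes of a pair rose (33.9%) and 162 fell (38.4%). Of 425 farther genes 135 rose (31.8%) and 159 fell (37.4%), and both rising shares were near the 32.3% of all features. Rank within the pair thus gave a smaller split than the distance in bp.

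For 417 pairs both genes were tested, and each pair was put in a class by its calls. In T99N both genes rose in 8 pairs (1.92%), a share near that of divergent pairs without a summit (17 of 839, 2.03%). Both fell in 12 (2.88%, against 2.03%), and neither was called in 239 (57.3%, against 65.3%). In wild type both rose in 58 pairs (13.9%), a share near that of divergent pairs without a summit (112 of 839, 13.3%). Both fell in 71 (17.0%, against 9.42% without a summit), and 1 rose and 1 fell in 83 (19.9%, against 11.0%). Neither was called in 39 (9.35%, against 19.7%). With both log2 fold changes above 1, 16 pairs with a peak and 8 without a summit were left. Pairs in which both rose had a median fold enrichment of 23.4, against 11.5 where 1 rose and 1 fell, 7.20 where both fell and 8.07 where neither was called. Above 30-fold, both rose in wild type in 21 of 84 pairs (25%, against 13.3% without a summit). In TL-seq both rose in 29 of 362 pairs (8.01%), a share near that without a summit (49 of 764, 6.41%). The median fold enrichment of the 29 was 35.0. The changes of the left and right genes of a pair had ρ 0.18 in wild type (n = 417), against 0.25 for pairs without a summit (n = 839), over genes of the same libraries. Where 1 gene rose and the other fell, the gene that rose was nearer to the summit in 40 of 83 pairs in wild-type RNA-seq and in 32 of 53 pairs in TL-seq.

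**Figure D4:**
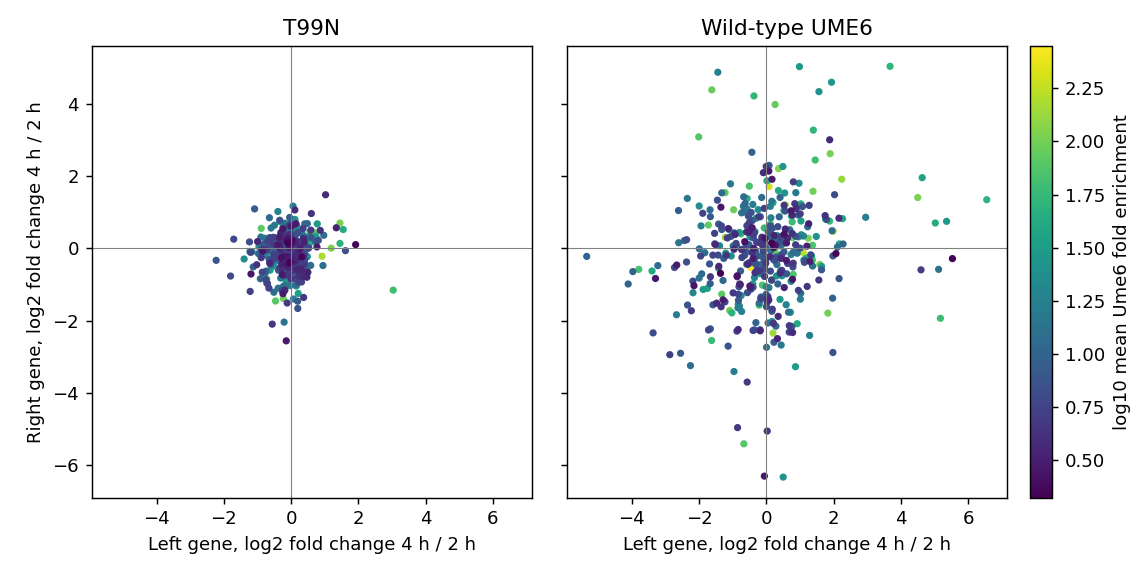
Each point is 1 gap with both genes tested, with the log2 fold change 4 h against 2 h of the left gene (x axis) and of the right gene (y axis), in T99N (left) and wild type (right), coloured by the log10 of the mean Ume6 fold enrichment. The points lie closer to the origin in T99N, and in wild type they spread in every direction, with the 58 pairs that rose together at the upper right.

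Among pairs that rose together in wild type were genes of meiotic chromosomes. SPO22/HOP1 has its summit at chromosome IX, position 211255 of SK1, 430 bp from *SPO22* and 221 bp from *HOP1*, with enrichments of 32.7, 64.6 and 54.7. *HOP1*, for a protein of the chromosome axis, had 95.1, 96.97 and 98.4 CPM at 4 h and 54.5, 71.6 and 67.7 CPM at 2 h in T99N, and 1815, 1685 and 1598 CPM at 4 h and 66.6, 47.5 and 39.95 CPM at 2 h in wild type. *HOP1* rose in T99N (0.61 on the log2 scale, SE 0.17, edgeR adjusted p = 0.024) and in wild type (5.03 on the log2 scale, SE 0.20, edgeR adjusted p = 7.9e-10), and the strains differed by -4.42 (SE 0.25, edgeR adjusted p = 9.2e-08). *SPO22*, whose product acts in crossover formation and synapsis, had 123, 144 and 132 CPM at 4 h and 103, 139 and 125 CPM at 2 h in T99N, and 1083, 1067 and 1238 CPM at 4 h and 112, 72.4 and 76.9 CPM at 2 h in wild type. The 4 h and 2 h libraries of *SPO22* overlapped in T99N and stood apart in wild type (3.68 on the log2 scale, SE 0.18, edgeR adjusted p = 2.7e-09). In TL-seq the *HOP1* start had 7079, 6290 and 6606 normalized reads at 4 h and 16.9, 2.74 and 16.6 at 2 h (9.30 on the log2 scale, SE 0.53, limma adjusted p = 1.3e-06).

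YIG1/CSM4 has the shortest gap of the 8 named pairs that rose together (329 bp), with enrichments of 72.9, 111 and 126. *CSM4*, needed for chromosome movement in prophase, had 115, 134 and 138 CPM at 4 h and 72.9, 109.8 and 110.4 CPM at 2 h in T99N, and 322, 345 and 259 CPM at 4 h and 53.6, 40.6 and 55.4 CPM at 2 h in wild type. It rose in wild type by 2.61 on the log2 scale, and the strains differed by -2.18 on the log2 scale, SE 0.25, edgeR adjusted p = 2.2e-05. *YIG1*, a gene of glycerol metabolism, had 413, 589 and 559 CPM at 4 h and 308, 649 and 590.0 CPM at 2 h in T99N, and 735, 750.1 and 735 CPM at 4 h and 217, 164 and 206 CPM at 2 h in wild type. Its times overlapped in T99N, and it rose in wild type (1.90 on the log2 scale, SE 0.23, edgeR adjusted p = 9.6e-06). The summit lay 160 bp from *YIG1* and 170 bp from *CSM4*, about midway.

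In MRX7/MER1 (32.6, 22.4 and 26.97) and PHO92/WIP1 (33.1, 33.8 and 38.1) a meiotic gene rose beside a gene of another role. *MER1*, for a meiotic splicing factor, had 6.80, 8.07 and 6.59 CPM at 4 h and 3.46, 5.93 and 3.98 CPM at 2 h in T99N, and 48.6, 33.6 and 47.3 CPM at 4 h and 2.34, 1.39 and 1.56 CPM at 2 h in wild type. It rose in wild type (4.59 on the log2 scale, SE 0.26, edgeR adjusted p = 1.2e-08). *MRX7*, for a mitochondrial protein, had 3.27, 2.42 and 4.02 CPM at 4 h and 3.21, 5.49 and 4.22 CPM at 2 h in T99N, and 16.8, 20.9 and 42.3 CPM at 4 h and 8.52, 4.83 and 7.14 CPM at 2 h in wild type. The third wild-type library of *MRX7* at 4 h was the highest, and all 3 were above the 2 h libraries (1.94 on the log2 scale, SE 0.34, edgeR adjusted p = 0.00022). *PHO92*, for a reader of N6-methyladenosine, had 89.2, 95.04 and 72.8 CPM at 4 h and 57.2, 47.01 and 51.2 CPM at 2 h in T99N, and 475, 453 and 586 CPM at 4 h and 26.9, 16.7 and 16.6 CPM at 2 h in wild type. It rose in T99N (0.74 on the log2 scale, SE 0.18, edgeR adjusted p = 0.014) and in wild type (4.64 on the log2 scale, SE 0.21, edgeR adjusted p = 1.5e-09). *WIP1*, of the kinetochore, had 27.6, 28.2 and 27.8 CPM at 4 h and 27.9, 18.4 and 20.4 CPM at 2 h in T99N, and 70.2, 81.6 and 71.1 CPM at 4 h and 21.6, 14.7 and 20.8 CPM at 2 h in wild type. Its times overlapped in T99N, and it rose in wild type (1.95 on the log2 scale, SE 0.18, edgeR adjusted p = 6.4e-07).

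MBA1/PCH2 rose together in RNA-seq but not in TL-seq. *PCH2*, for an ATPase of the pachytene checkpoint whose start lay 37 bp from the summit, had 181, 159 and 181 CPM at 4 h and 122, 86.1 and 94.7 CPM at 2 h in T99N, and 496, 459 and 682 CPM at 4 h and 29.7, 25.4 and 25.3 CPM at 2 h in wild type. It rose in T99N (0.80 on the log2 scale, SE 0.17, edgeR adjusted p = 0.0067) and in wild type (4.33 on the log2 scale, SE 0.19, edgeR adjusted p = 1.5e-09). *MBA1*, for a receptor of the mitochondrial ribosome and a LUTI locus, had 36.4, 37.3 and 37.2 CPM at 4 h and 36.2, 34.9 and 32.5 CPM at 2 h in T99N, and 96.2, 107 and 81.3 CPM at 4 h and 29.6, 34.9 and 30.5 CPM at 2 h in wild type. The count over the CDS holds reads of both transcripts (1.57 on the log2 scale, SE 0.12, edgeR adjusted p = 1.9e-07 in wild type). The TL-seq cluster near the *MBA1* CDS had 50.4, 80.3 and 45.5 normalized reads at 4 h and 164, 139.5 and 119.8 at 2 h (-1.28 on the log2 scale, SE 0.28, limma adjusted p = 0.0057), and the distal cluster had 260.1, 191 and 248 normalized reads at 4 h and 3.37, 0.912 and 3.56 at 2 h.

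HTA2/HTB2 and GAL10/GAL1 rose together beside low peaks, of 4.37, 3.24 and 3.61 and of 8.37, 5.34 and 5.89. *HTB2*, for histone H2B, had 66.8, 82.8 and 75.7 CPM at 4 h and 42.03, 18.7 and 19.9 CPM at 2 h in T99N, and 454, 498 and 236 CPM at 4 h and 46.4, 51.9 and 48.5 CPM at 2 h in wild type. Its reads may be shared with the near-identical *HTB1*, and those of *HTA2* with *HTA1*, so these values are uncertain. The strains differed in *HTB2* by -1.52 on the log2 scale, SE 0.42, edgeR adjusted p = 0.012, a call lost without replicate 1 (-0.76) or replicate 2 (-1.63). *GAL10*, for the epimerase of galactose use, had 37.9, 34.5 and 33.1 CPM at 4 h and 36.1, 32.1 and 33.6 CPM at 2 h in T99N, and 96.5, 93.3 and 82.5 CPM at 4 h and 20.7, 24.4 and 20.8 CPM at 2 h in wild type. *GAL1*, for galactokinase, had 29.2, 26.6 and 23.1 CPM at 4 h and 28.2, 30.1 and 30.6 CPM at 2 h in T99N, and 81.6, 90.8 and 66.9 CPM at 4 h and 29.3, 27.04 and 28.4 CPM at 2 h in wild type. Both overlapped between the times in T99N and rose in wild type (1.48 on the log2 scale, SE 0.13, edgeR adjusted p = 5.8e-07 for *GAL1*).

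The 10 most enriched gaps were of mixed direction. AGP1/KCC4, with its summit at chromosome III, position 79225 and enrichments of 287.8, 229 and 330.2, lies between an amino acid permease gene and a gene for a kinase of the bud neck. *AGP1* had 1190, 980.1 and 964 CPM at 4 h and 1067, 1066 and 938 CPM at 2 h in T99N, and 1606, 1517 and 1062 CPM at 4 h and 1524, 2397 and 1813 CPM at 2 h in wild type. Its wild-type change missed the threshold (-0.47 on the log2 scale, SE 0.20, edgeR adjusted p = 0.054) and passed it without replicate 1 (-0.74), and it was lower in UB14584 (-2.58 on the log2 scale, SE 0.33, edgeR adjusted p = 0.0013). *KCC4* had 44.97, 41.95 and 42.3 CPM at 4 h and 41.5, 39.3 and 33.7 CPM at 2 h in T99N, and 25.7, 25.3 and 25.2 CPM at 4 h and 40.6, 35.6 and 32.5 CPM at 2 h in wild type. The 4 h libraries of *KCC4* were above the 2 h libraries in T99N and below them in wild type (-0.53 on the log2 scale, SE 0.13, edgeR adjusted p = 0.0023), and the difference between strains (0.72 on the log2 scale, SE 0.18, edgeR adjusted p = 0.0068) missed the threshold without replicate 2 (0.77). The wild-type call of *KCC4* was also lost with library totals alone. TL-seq gave the *KCC4* start 6.09, 15.5 and 13.5 normalized reads at 4 h and 36.2, 36.5 and 48.6 at 2 h (-1.78 on the log2 scale, SE 0.42, limma adjusted p = 0.0081).

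At PRX1/KIP1 (chromosome II, position 119551, enrichments 204, 220.0 and 170.1) the farther gene rose. *KIP1*, for a kinesin of spindle assembly whose start is 519 bp from the summit, had 95.8, 93.3 and 100.4 CPM at 4 h and 82.1, 92.9 and 90.9 CPM at 2 h in T99N, and 173, 188 and 203 CPM at 4 h and 69.6, 45.9 and 55.6 CPM at 2 h in wild type. It rose in wild type (1.71 on the log2 scale, SE 0.14, edgeR adjusted p = 2.4e-07), and the strains differed by -1.56 on the log2 scale. *PRX1*, for a mitochondrial peroxiredoxin and 213 bp from the summit, had 399.5, 391 and 387 CPM at 4 h and 337, 383 and 451 CPM at 2 h in T99N, and 809, 820.4 and 544 CPM at 4 h and 655, 696 and 678 CPM at 2 h in wild type. These overlapped between the times in both strains. In TL-seq *PRX1* had 14820, 16060 and 13930 normalized reads at 4 h and 10790, 10290 and 7390 at 2 h (0.67 on the log2 scale, SE 0.23, limma adjusted p = 0.045), a call lost without replicate 1 or 3 (0.78 and 0.69).

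Genes of arginine breakdown and of carnitine transport flanked 3 of the 10. *CAR2*, for ornithine aminotransferase, shares its gap with *DIF1*, a regulator of ribonucleotide reductase (158, 138 and 101). *CAR2* had 876, 879 and 1006 CPM at 4 h and 648, 899 and 882 CPM at 2 h in T99N, and 2599, 2607 and 2198 CPM at 4 h and 448, 899 and 603 CPM at 2 h in wild type. *DIF1* had 16.2, 15.8 and 15.3 CPM at 4 h and 17.3, 13.4 and 14.3 CPM at 2 h in T99N, and 78.8, 93.7 and 66.6 CPM at 4 h and 12.8, 24.4 and 12.5 CPM at 2 h in wild type. Both overlapped between the times in T99N and rose in wild type (1.91 on the log2 scale, SE 0.23, edgeR adjusted p = 7.6e-06 for *CAR2*, and 2.24 for *DIF1*). *CAR1*, for arginase, beside *PEX25* (132, 109.7 and 90.4), had 202, 221 and 226 CPM at 4 h and 142, 116 and 123 CPM at 2 h in T99N, and 979, 929.7 and 672 CPM at 4 h and 134, 219 and 202 CPM at 2 h in wild type. It rose in both strains, and by less in T99N (-1.41 on the log2 scale, SE 0.26, edgeR adjusted p = 0.0011). *PEX25*, of the peroxisome membrane, starts 6883 bp away in a gap of 7054 bp, and its wild-type rise of 0.37 was lost without replicate 2 (0.18). *CRC1*, for the mitochondrial carnitine carrier (146, 181 and 139.8), had 971, 1126 and 1079 CPM at 4 h and 652, 491 and 558 CPM at 2 h in T99N, and 2318, 1961 and 1864 CPM at 4 h and 390.0, 545 and 593 CPM at 2 h in wild type. It rose in both strains, and by less in T99N (-1.07 on the log2 scale, SE 0.26, edgeR adjusted p = 0.0059). *RAS1*, for a GTPase, changed by 0.47 in wild type, a call lost without replicate 2 (0.46) or 3 (0.47).

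Other highly enriched gaps held genes that fell or missed the threshold. *PST1*, for a cell wall protein, in CDC34/PST1 (92.5, 134 and 189), had 750.3, 728 and 722 CPM at 4 h and 1266, 1531 and 1603 CPM at 2 h in T99N, and 345, 305 and 314 CPM at 4 h and 1229, 1759 and 1854 CPM at 2 h in wild type. It fell in both strains, and by less in T99N (1.37 on the log2 scale, SE 0.24, edgeR adjusted p = 0.00062). *CDC34*, for a ubiquitin-conjugating enzyme, had 300.0, 336 and 302 CPM at 4 h and 238, 275 and 321 CPM at 2 h in T99N, and 247, 240.4 and 252 CPM at 4 h and 200.2, 225 and 210.5 CPM at 2 h in wild type, and missed the threshold (0.20 on the log2 scale, SE 0.12, edgeR adjusted p = 0.15 in wild type). *JHD2*, for a histone H3K4 demethylase (141, 135 and 129), had 38.4, 40.3 and 35.1 CPM at 4 h and 50.8, 47.2 and 56.4 CPM at 2 h in T99N, and 28.2, 27.9 and 28.8 CPM at 4 h and 74.9, 58.2 and 62.3 CPM at 2 h in wild type. It fell in wild type (-1.22 on the log2 scale, SE 0.12, edgeR adjusted p = 1.7e-06), while *ATP2*, of ATP synthase, overlapped between the times in both strains. The RefSeq annotation has a further gene, *DMO1*, between *JHD2* and *ATP2*. *SMT3*, for SUMO (129, 122 and 152), had 52.8, 55.99 and 57.3 CPM at 4 h and 53.2, 47.2 and 48.9 CPM at 2 h in T99N, and 243, 256 and 161 CPM at 4 h and 107, 75.2 and 102 CPM at 2 h in wild type. It rose in wild type (1.198 on the log2 scale, SE 0.17, edgeR adjusted p = 3.5e-05), and its partner *GNP1*, for a glutamine permease, changed by 0.56 on the log2 scale, SE 0.26, edgeR adjusted p = 0.076 and missed the threshold.

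YDL211C/UGA4 (100.5, 110.1 and 108) and SNF2/YPK9 (90.7, 188 and 242) complete the 10. YDL211C had 65.9, 61.6 and 57.4 CPM at 4 h and 42.9, 18.4 and 19.3 CPM at 2 h in T99N, and 61.2, 68.1 and 84.8 CPM at 4 h and 27.1, 24.4 and 18.6 CPM at 2 h in wild type. It rose in both strains, and the difference between them missed the threshold (-0.40 on the log2 scale, SE 0.38, edgeR adjusted p = 0.45). *UGA4*, for a permease of gamma-aminobutyrate, fell by 0.45 on the log2 scale in wild type, a call lost without replicate 2 (-0.35) or 3 (-0.42). *SNF2*, for the ATPase of the SWI/SNF remodeler and a LUTI locus, had 275, 313 and 307 CPM at 4 h and 260.0, 255 and 263 CPM at 2 h in T99N, and 388, 358 and 456 CPM at 4 h and 204, 173 and 178 CPM at 2 h in wild type. Its distal TL-seq cluster had 37.4, 33.1 and 28.6 normalized reads at 4 h and 0.842, 0 and 0 at 2 h, and the cluster near its CDS had 90.5, 108 and 135 normalized reads at 4 h and 131, 127 and 107 at 2 h, which overlapped. *YPK9*, for a vacuolar ATPase, had 90.7, 80.2 and 77.2 CPM at 4 h and 112, 112 and 103 CPM at 2 h in T99N, and 109, 100.4 and 104 CPM at 4 h and 115, 109.9 and 113 CPM at 2 h in wild type. It fell in T99N (-0.38 on the log2 scale, SE 0.10, edgeR adjusted p = 0.019) and missed the threshold in wild type (-0.12 on the log2 scale, SE 0.10, edgeR adjusted p = 0.30).

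In 6 named pairs 1 gene rose and the other fell in wild type. MIG1/HOP2 and MND1/GTS1 hold the partners Hop2 and Mnd1 of meiotic strand exchange. *HOP2* had 90.6, 93.8 and 98.98 CPM at 4 h and 57.2, 41.5 and 42.7 CPM at 2 h in T99N, and 286, 299 and 274 CPM at 4 h and 14.5, 6.88 and 7.81 CPM at 2 h in wild type, and rose in T99N (1.02 on the log2 scale, SE 0.21, edgeR adjusted p = 0.0052). *MIG1*, for a repressor of glucose-repressed genes, had 30.9, 31.9 and 29.1 CPM at 4 h and 32.4, 50.97 and 39.9 CPM at 2 h in T99N, and 20.8, 23.2 and 20.3 CPM at 4 h and 47.95, 66.2 and 58.7 CPM at 2 h in wild type. In wild type *HOP2* rose (4.87 on the log2 scale, SE 0.24, edgeR adjusted p = 2.5e-09) and *MIG1* fell (-1.44 on the log2 scale, SE 0.16, edgeR adjusted p = 4.4e-06), with the summit 151 bp from *HOP2* and 2363 bp from *MIG1*. In T99N the 4 h libraries of *MIG1* were below its 2 h libraries with no call. *MND1* had 88.04, 100.2 and 91.8 CPM at 4 h and 40.9, 49.6 and 56.8 CPM at 2 h in T99N, and 331, 255 and 481 CPM at 4 h and 10.9, 9.94 and 9.37 CPM at 2 h in wild type. It rose by 0.95 in T99N and by 5.12 in wild type on the log2 scale, and *GTS1* fell by 0.58, a call lost without replicate 2 (-0.48).

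At YJL107C/IME2 (74.9, 111 and 87.4) *IME2*, whose values are given above, overlapped between the times in T99N and rose in wild type (4.38 on the log2 scale, SE 0.24, edgeR adjusted p = 6.4e-09). YJL107C had 156, 138 and 151 CPM at 4 h and 144, 192 and 194 CPM at 2 h in T99N, and 106, 94.2 and 63.1 CPM at 4 h and 222, 269.8 and 306 CPM at 2 h in wild type. It overlapped between the times in T99N and fell in wild type (-1.62 on the log2 scale, SE 0.18, edgeR adjusted p = 4.4e-06). At PUP2/ENO1 (25.7, 27.3 and 26.97), *ENO1*, for enolase of glycolysis, had 1337, 932 and 1423 CPM at 4 h and 1087, 2938 and 3746 CPM at 2 h in T99N, and 133, 94.7 and 49.4 CPM at 4 h and 5800, 8872 and 7355 CPM at 2 h in wild type. It overlapped in T99N and fell in wild type (-6.33 on the log2 scale, SE 0.51, edgeR adjusted p = 2.0e-07), and the strains differed by 5.28 on the log2 scale, SE 0.60, edgeR adjusted p = 2.5e-05. Its reads may be shared in part with *ENO2*. *PUP2*, of the proteasome, rose by 0.50 on the log2 scale in wild type, a call lost without replicate 1 (0.38) or 2 (0.42).

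At IME1/RPL43B (42.4, 69.5 and 76.3) the region upstream of *IME1* was edited in these strains, so the values of *IME1* are those of the copper construct. *RPL43B*, for a ribosomal protein with a near-identical copy, had 7.81, 4.20 and 4.53 CPM at 4 h and 11.4, 14.1 and 12.4 CPM at 2 h in T99N, and 8.11, 8.57 and 4.85 CPM at 4 h and 30.2, 29.4 and 23.1 CPM at 2 h in wild type. At YPR027C/YOP1 (3.93, 5.77 and 5.75), YPR027C had 19.4, 18.2 and 20.1 CPM at 4 h and 20.03, 20.2 and 22.2 CPM at 2 h in T99N, and 60.2, 72.5 and 91.03 CPM at 4 h and 4.90, 2.60 and 1.56 CPM at 2 h in wild type. It overlapped in T99N and rose in wild type (4.60 on the log2 scale, SE 0.28, edgeR adjusted p = 2.1e-08). *YOP1*, whose product shapes the endoplasmic reticulum, fell by 0.60 on the log2 scale in wild type, a call lost with library totals alone, and starts 2320 bp from the summit.

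**Figure D5:**
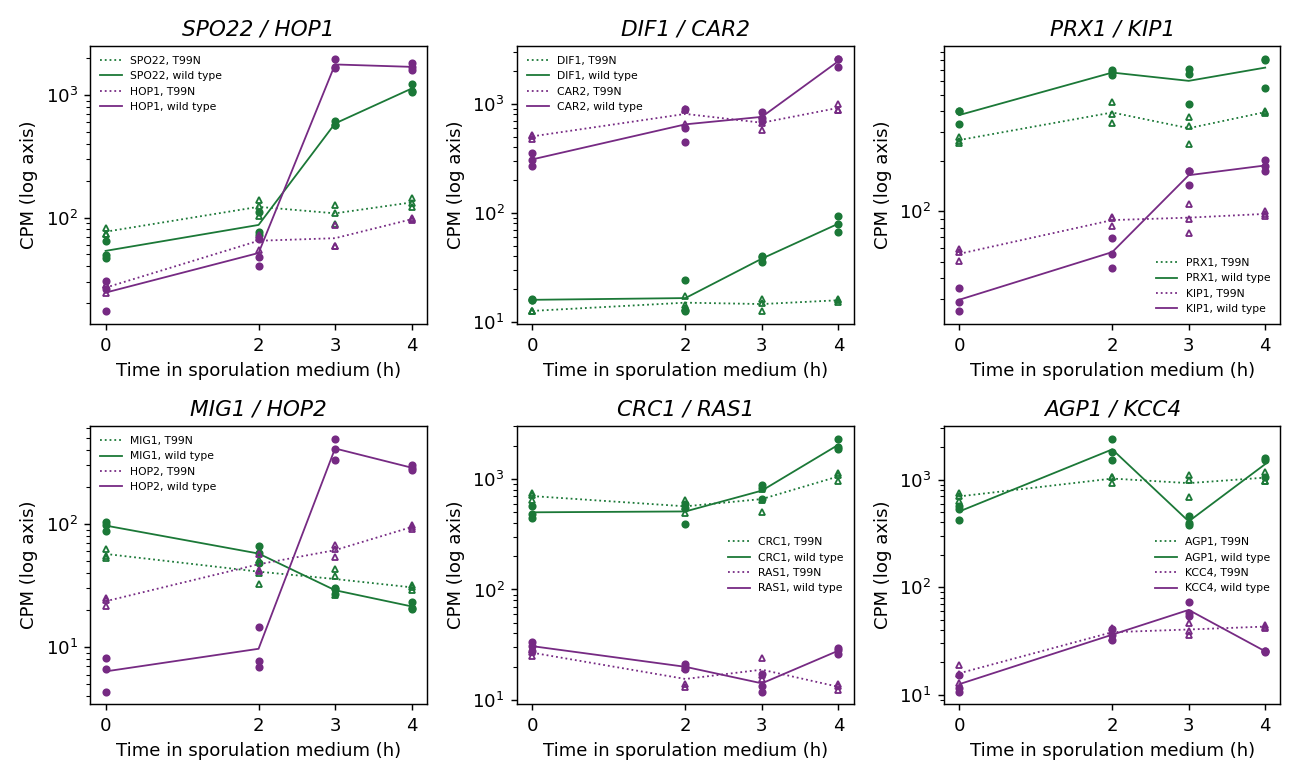
CPM (log axis) at 0, 2, 3 and 4 h in SPO for both genes of 6 pairs, green for the left and purple for the right gene, open triangles and dotted lines for T99N, filled circles and full lines for wild type, with lines through the means of 3 libraries. The T99N lines of *HOP1* and *CAR2* stay flatter, and in wild type *HOP1* reached 1694, 1986 and 1655 CPM at 3 h. Wild-type *CAR2* had 745, 836 and 702 CPM at 3 h, which overlapped its 2 h libraries (448, 899 and 603 CPM). At 4 h it had 2599, 2607 and 2198 CPM.

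In 8 pairs neither gene was called in any comparison. The most enriched, BXI1/YPT11 (43.3, 36.2 and 37.6), has its summit 175 bp from *BXI1* and 331 bp from *YPT11*, for a Rab GTPase of mitochondrial inheritance. *BXI1* had 578, 624 and 592 CPM at 4 h and 478, 775 and 762.2 CPM at 2 h in T99N, and 531, 539 and 479.5 CPM at 4 h and 288.4, 549 and 388 CPM at 2 h in wild type. *YPT11* had 25.4, 23.9 and 18.9 CPM at 4 h and 19.8, 15.8 and 15.4 CPM at 2 h in T99N, and 24.2, 26.8 and 22.6 CPM at 4 h and 19.9, 20.4 and 16.6 CPM at 2 h in wild type, and missed the threshold in wild type (0.35 on the log2 scale, SE 0.17, edgeR adjusted p = 0.077). *BXI1* is a LUTI locus with a distal TL-seq cluster, which the calls of the gene cluster do not hold. That cluster had 172, 204 and 146 normalized reads at 4 h and 21.1, 8.21 and 8.30 at 2 h (3.81 on the log2 scale, SE 0.38). A rise was required of distal clusters when the study chose them. The other named pairs of this kind were RTS3/YGR161W-C (10.8-fold), RUP1/SFL1 (9.76-fold), GID8/GAT2 (7.70-fold) and POR1/VAC7 (6.83-fold). *SFL1*, for a repressor of flocculation genes, had 145, 165 and 159 CPM at 4 h and 160.3, 156 and 139.7 CPM at 2 h in T99N, and 112, 109.7 and 131 CPM at 4 h and 93.1, 128 and 124 CPM at 2 h in wild type. A miss of the threshold does not show that these genes did not change.

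Of 74 candidate LUTI loci, 47 flanked a peak, 23 of them above 30-fold. The study kept a distal start cluster only where its TL-seq signal rose from 2 h to 4 h beyond a set fold change. A rise of the distal clusters was thus fixed by that choice. The list of loci was drawn up in the study from these samples, so its direction is not independent evidence. *MIC10* (YCL057C-A), beside a peak of 62.4-fold, is counted among them. The study later set that locus aside from the LUTIs. Over the CDS, 5 of the 47 were higher at 4 h in T99N (*SWI4*, *HSP60*, *ARD1*, *CFT2* and *MCM5*) and 4 lower (*RAD16*, *STP2*, *MAK21* and *TNA1*). These shares were near those of all features, 9.77% and 11.1%. In wild type 35 were higher and 5 lower (*STP2*, *NCW1*, *ERG12*, *TNA1* and *RPL28*), against 32.3% and 30.8% of all features, with a median log2 fold change of 0.81. The test between strains called 2 higher in T99N (*NCW1* and *MCM5*) and 27 lower, against 18.2% and 17.5% of all features. In TL-seq the cluster assigned to the CDS was higher at 4 of 46 (*XKS1*, *ITR2*, *BDF2* and *MCM5*) and lower at 23, against 24.6% and 23.8% of all clusters. That of *XKS1* lay 343 bp upstream of the summit, with no separate distal cluster, and is not shown to be a start near the CDS. The distal cluster was higher at 46 of 46, as its choice required, with a median of 5.24 on the log2 scale. Of these, 5 had no read in any 2 h library, and with them at their lower bound (3 reads per library, 2.94 normalized reads) the median was 5.11. They were at least 108-fold higher at *RAD16*, 106-fold at *MMS1*, 31.8-fold at *CFT2*, 10.9-fold at *ARD1* and 8.53-fold at *LCB5*.

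The distal starts lay a median of 93 bp downstream of the nearest summit in the sense of the gene, with quartiles of -253 and 127 bp, where negative values are upstream. Of the 46, 28 lay downstream, and 23 of these within 200 bp. In RNA-seq of the stretch that the long transcript adds, 2 of 45 tested regions were higher at 4 h in T99N (*SNF2* and *SWI4*) and 1 lower (*ENV9*), with a median of 0.05 on the log2 scale. In wild type 43 of 45 were higher and 1 lower (*ENV9* again), with a median of 3.45. The test between strains called 32 lower in T99N and 0 higher. Over all features 9.77% rose in T99N, 32.3% rose in wild type, and 17.5% were lower in the test between strains. These stretches belong to starts kept because they rose in TL-seq of UB14584. Their rise in wild type, which also enters the test between strains, is thus not independent evidence. The *ENV9* stretch had 40.7, 43.9 and 58.2 CPM at 4 h and 141, 199 and 131 CPM at 2 h in wild type, while its distal start in TL-seq of UB14584 had 38.3, 45.8 and 89.2 normalized reads at 4 h and 9.27, 1.82 and 4.74 at 2 h, so reads of that stretch cannot be taken as those of the long transcript.

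Of 11 pairs in which both genes are listed, 6 hold LUTI loci on both sides. At HSP60/LCB5 (60.1, 65.6 and 59.9), *HSP60*, for the mitochondrial chaperonin, had 698, 1068 and 448 normalized reads at 4 h and 7.58, 3.65 and 3.56 at 2 h at its distal start (6.94 on the log2 scale, SE 0.38). *LCB5*, for a sphingoid base kinase, had 22.6, 10.6 and 42.1 normalized reads at 4 h and 0, 0 and 0 at 2 h. Near the CDS *HSP60* had 1237, 1136 and 1829 normalized reads at 4 h and 1312, 1001 and 1679 at 2 h, and *LCB5* 138, 162 and 170.1 normalized reads at 4 h and 224, 172 and 165 at 2 h, which overlapped between the times for both. The distal start of *LCB5* was 95 bp downstream of the summit and that of *HSP60* 296 bp upstream of it, in the sense of each gene, so the long *HSP60* transcript starts on the far side of the summit and runs across it.

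CYC8/RAD16 (47.6, 41.04 and 37.6) and ALY2/TAX4 (13.9, 19.00 and 22.4) had lower starts near the CDS on both sides. *CYC8*, for the corepressor partner of Tup1, had 383, 326 and 197 normalized reads at 4 h and 0, 0 and 2.37 at 2 h at the distal start. Near its CDS it had 46.97, 76.8 and 45.5 normalized reads at 4 h and 123, 99.4 and 119 at 2 h (-1.03 on the log2 scale, SE 0.28, limma adjusted p = 0.015), a call lost without replicate 1 (-0.87). *RAD16*, of nucleotide excision repair, had 329, 325 and 301 normalized reads at 4 h and 0, 0 and 0 at 2 h at the distal start, and 33.05, 28.9 and 8.42 normalized reads at 4 h and 197, 202 and 98.4 at 2 h near the CDS (-2.90 on the log2 scale, SE 0.50, limma adjusted p = 0.0015). *ALY2*, for an arrestin, had 1779, 1907 and 2002 normalized reads at 4 h and 21.1, 7.30 and 13.1 at 2 h at the distal start (7.11 on the log2 scale, SE 0.33). Near the CDS *ALY2* had 6.96, 15.5 and 6.74 normalized reads at 4 h and 138, 160.5 and 113 at 2 h (-3.77 on the log2 scale, SE 0.37, limma adjusted p = 5.5e-05). *TAX4* had 116, 113 and 377 normalized reads at 4 h and 5.90, 1.82 and 4.74 at 2 h at the distal start. Near the CDS it had 23.5, 26.1 and 37.05 normalized reads at 4 h and 42.96, 60.2 and 60.5 at 2 h (-0.90 on the log2 scale, SE 0.31, limma adjusted p = 0.042), a call lost without replicate 1 (-0.93) or 3 (-0.77). The RNA-seq count over the CDS of *ALY2* was of the opposite sign, since *ALY2* had 280.3, 269 and 262 CPM at 4 h and 284, 263 and 265 CPM at 2 h in T99N, and 452, 462 and 513 CPM at 4 h and 225, 213 and 217 CPM at 2 h in wild type (1.11 on the log2 scale, SE 0.10, edgeR adjusted p = 8.6e-07 in wild type).

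The other 3 such pairs also had higher distal starts on both sides, as the choice of these clusters required. At MES1/YGR266W (24.3, 23.7 and 23.6), *MES1*, for methionyl-tRNA synthetase, had 320.1, 323 and 359 normalized reads at 4 h and 26.1, 19.1 and 15.4 at 2 h at the distal start, and 4.35, 7.75 and 8.42 normalized reads at 4 h and 98.6, 86.6 and 130.5 at 2 h near the CDS (-3.78 on the log2 scale, SE 0.36, limma adjusted p = 4.6e-05). YGR266W had 67.8, 69.7 and 43.8 normalized reads at 4 h and 0, 0 and 2.37 at 2 h at its distal start. At AVL9/CFT2 (13.9, 30.3 and 24.9), *AVL9*, of exocytic transport, had 361, 292 and 386 normalized reads at 4 h and 0.842, 0.912 and 3.56 at 2 h at the distal start. *CFT2*, of the cleavage and polyadenylation factor, had 101, 66.9 and 113 normalized reads at 4 h and 0, 0 and 0 at 2 h. At GNT1/PMT3 (20.4, 48.7 and 54.8), *PMT3*, for a protein mannosyltransferase, had 48.7, 26.8 and 48.8 normalized reads at 4 h and 0.842, 0 and 0 at 2 h at the distal start and 187, 330.3 and 204 normalized reads at 4 h and 657, 524 and 593 at 2 h near the CDS (-1.34 on the log2 scale, SE 0.26, limma adjusted p = 0.0030). *GNT1*, for an N-acetylglucosaminyltransferase, had 74.8, 90.9 and 40.4 normalized reads at 4 h and 12.6, 12.8 and 9.49 at 2 h at the distal start.

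In 4 of the 11 pairs a listed Ume6 target faced a LUTI locus, MBA1/PCH2 among them. At NDJ1/ITR2, *NDJ1*, needed to tether telomeres in prophase, had 54.8, 63.2 and 62.6 CPM at 4 h and 28.1, 19.3 and 18.9 CPM at 2 h in T99N, and 441, 411 and 517 CPM at 4 h and 6.29, 4.18 and 3.91 CPM at 2 h in wild type. It rose in T99N (1.45 on the log2 scale, SE 0.18, edgeR adjusted p = 0.00049) and in wild type (6.56 on the log2 scale, SE 0.23, edgeR adjusted p = 3.8e-10). *ITR2*, for an inositol transporter, had 309.6, 345 and 313 normalized reads at 4 h and 2.53, 0.912 and 4.74 at 2 h at its distal start, and 196, 149 and 163 normalized reads at 4 h and 46.3, 50.2 and 59.3 at 2 h near the CDS (1.69 on the log2 scale, SE 0.24, limma adjusted p = 0.00045), so both starts rose. At ARD1/SPO13 (11.7, 36.2 and 40.4), *SPO13*, for a regulator of meiosis I, had 88.04, 92.8 and 85.1 CPM at 4 h and 54.3, 63.05 and 52.2 CPM at 2 h in T99N, and 263, 262 and 505 CPM at 4 h and 15.2, 7.25 and 8.93 CPM at 2 h in wild type. *ARD1*, for an N-terminal acetyltransferase subunit, had 20, 54.2 and 21.9 normalized reads at 4 h and 0, 0 and 0 at 2 h at the distal start, and more near the CDS, with 489.7, 540.2 and 477 normalized reads at 4 h and 410.2, 323 and 377 at 2 h. At PIG1/MCM5 (3.11, 4.97 and 4.91), *PIG1*, for a regulatory subunit of the Glc7 phosphatase, rose in T99N (0.60 on the log2 scale, SE 0.12, edgeR adjusted p = 0.0048) and in wild type (0.77 on the log2 scale, SE 0.12, edgeR adjusted p = 7.7e-05). *MCM5*, of the replicative helicase, rose in T99N (0.96 on the log2 scale, SE 0.14, edgeR adjusted p = 0.0011), and its wild-type call (0.41) was lost without replicate 2 (0.38) or 3 (0.44). The T99N calls of *PIG1* and *MCM5* were not followed without single replicates.

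Of a list of 32 recombination and synapsis genes, 12 flanked a peak. In T99N 7 of the 12 rose, with a median log2 fold change of 0.74, and in wild type 12 rose, with a median of 4.94. Over all features 9.77% rose in T99N and 32.3% in wild type. The T99N calls of *HOP1*, *HOP2*, *MND1*, *PCH2*, *REC8* and *SPO16* were lost without replicate 2, and those of *HOP1*, *HOP2*, *PCH2* and *REC8* also without replicate 3, with changes still above 0, while *NDJ1* was called in both fits. By the test between strains the change was smaller in T99N for all 12, against 17.5% of all features called lower. For the genes whose values follow, the 2 h libraries of T99N were already above those of wild type, while those of *HOP1* overlapped. At 4 h the libraries of *SPO16* overlapped between the strains. The part of the 2 h levels in the difference was not tested. Of the whole list of 32, 14 rose in T99N, 31 rose in wild type and 31 had a smaller change in T99N. Genes without such a peak thus did so as well. *RED1*, of the chromosome axis, lies 135 bp from a summit of 51.7-fold and had 84.9, 87.1 and 85.2 CPM at 4 h and 65.4, 78.2 and 71.2 CPM at 2 h in T99N, and 652, 561 and 874 CPM at 4 h and 48.1, 31.7 and 31.6 CPM at 2 h in wild type. *SPO16*, of the crossover machinery, had 275, 312 and 227 CPM at 4 h and 123, 87.2 and 70.01 CPM at 2 h in T99N, and 173, 184 and 277 CPM at 4 h and 8.42, 4.74 and 6.14 CPM at 2 h in wild type. It rose in T99N (1.55 on the log2 scale, SE 0.24, edgeR adjusted p = 0.0014) and in wild type (5.03 on the log2 scale, SE 0.29, edgeR adjusted p = 1.4e-08). *REC8*, for the meiotic cohesin subunit, had 404, 432 and 431 CPM at 4 h and 186, 77.3 and 72.8 CPM at 2 h in T99N, and 1650, 1542 and 1764 CPM at 4 h and 47.3, 30.5 and 27.9 CPM at 2 h in wild type. It rose in T99N (1.92 on the log2 scale, SE 0.31, edgeR adjusted p = 0.0017) and in wild type (5.53 on the log2 scale, SE 0.37, edgeR adjusted p = 4.0e-08), with a peak of 2.17-fold 1360 bp from its start.

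Of 73 canonical Ume6 targets, a list the study took from earlier work, 25 flanked a peak. In T99N 9 of the 25 rose and 1 fell (*YLR030W*), and in wild type 13 rose and 4 fell (*IRC15*, *SPG4*, *DAL3* and *SDD1*). In TL-seq 19 of 23 rose and 2 fell (*IRC15* and *DAL3*). Over all features the shares that rose and fell were 9.77% and 11.1% in T99N and 32.3% and 30.8% in wild type. Over all TL-seq clusters they were 24.6% and 23.8%. Of the whole list, 21 of 73 rose in T99N, 43 of 73 rose in wild type and 50 of 69 rose in TL-seq. The median log2 fold change in wild type was 0.77 for the 25 and 1.195 for the 73. *IRC15*, of microtubule function, lay 78 bp from a summit of 69.2-fold and had 141, 148 and 137 CPM at 4 h and 126, 159 and 136 CPM at 2 h in T99N, and 97.9, 102 and 94.8 CPM at 4 h and 115, 163 and 136 CPM at 2 h in wild type. It overlapped between the times in T99N and fell in wild type (-0.50 on the log2 scale, SE 0.13, edgeR adjusted p = 0.0038). *SPG4*, of stationary phase, had 1028, 1043 and 1228 CPM at 4 h and 722, 1110 and 1241 CPM at 2 h in T99N, and 614, 652 and 478 CPM at 4 h and 1485, 1585 and 1525 CPM at 2 h in wild type, and fell in wild type (-1.42 on the log2 scale, SE 0.19, edgeR adjusted p = 2.5e-05). A high peak close to a listed target thus did not always go with a rise.

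Of 15 carbon, nitrogen and lipid genes, 6 flanked a peak, and in wild type *CAR1* and *CAR2* rose and *ACC1* fell. Over all features 32.3% rose and 30.8% fell in wild type. *ACC1*, for acetyl-CoA carboxylase, had 5232, 4468 and 4372 CPM at 4 h and 4755, 9992 and 10540 CPM at 2 h in T99N, and 1768, 1582 and 1343 CPM at 4 h and 7234, 9127 and 8732 CPM at 2 h in wild type (-2.44 on the log2 scale, SE 0.28, edgeR adjusted p = 6.0e-06 in wild type). *ACS1*, *SIP4* and *JEN1*, all beside peaks above 30-fold, missed the threshold in wild type. *SIP4* was higher in UB14584 (1.21 on the log2 scale, edgeR adjusted p = 0.0044) and in TL-seq (1.68, limma adjusted p = 0.00066). *ACS1* was higher in TL-seq (0.56 on the log2 scale, limma adjusted p = 0.090) and not called in UB14584, and *JEN1* was called in neither. In the Ime1-Ume6 pathway, 4 of 16 genes flanked a peak, and in wild type *IME1*, *UME6* and *SIN3* rose while *CTI6* missed the threshold. *UME6* itself, 143 bp from a summit of 17.0-fold, had 505, 507 and 461 CPM at 4 h and 486, 779 and 785 CPM at 2 h in T99N, and 1402, 1342 and 2229 CPM at 4 h and 189, 230.1 and 214 CPM at 2 h in wild type (2.96 on the log2 scale, SE 0.23, edgeR adjusted p = 1.5e-07 in wild type). At 0 h *UME6* had 515, 587 and 519.9 CPM in T99N, against 124, 150.3 and 152 CPM in wild type, and the part of that difference in the results above was not tested. Of 6 middle meiosis markers, 3 flanked a peak, of which *CLB1* and *SMK1* were lower at 4 h in wild type and *SPS4*, whose values are given above, missed the threshold. In TL-seq *SPS4* was higher (6.64 on the log2 scale, limma adjusted p = 0.00026), *CLB1* was lower and *SMK1* missed the threshold. Of the 5 markers of the whole list tested in TL-seq, 3 rose and 1 fell.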

How the data were processed

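Ume6 peaks were called by the authors in each of 3 replicates over input, after alignment to SK1 with bowtie2 and down-sampling, with macs2 (q under 0.001, extension size 147 bp). The deposited lists give fold enrichment (a ratio), −log10 p and q, and a score, of which only the fold enrichment and the summit were used. The deposited RNA-seq tables hold expected counts and TPM per feature from salmon, by the authors (the strand setting is not given in the sources used here). Expected counts were rounded to whole numbers (96.8% were whole within 0.001), and TPM was not used. The deposited TL-seq signal is reads per start cluster divided by 1 size factor per library, by the authors, after cutadapt, STAR, CAGEr and DESeq2. Whole reads were recovered for 100% of these values (tolerance 0.05).

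RNA-seq was tested with edgeR 4.0.16 (glmQLFTest, TMM, filterByExpr) in R 4.3.3, and TL-seq with limma 3.58.1 on log2(normalized reads + 1), so TL-seq changes understate those of low clusters. P-values were adjusted over all features by the Benjamini-Hochberg method. The fits were tested on simulated data. DESeq2 1.42.0 was an alternative, with others on scaling, filters, pseudocount, windows and replicates. Deviations from the group mean of same-numbered TL-seq samples at 4 h and 2 h had r 0.159, 0.168 and 0.382. Replicate 3 at 4 h and replicate 1 at 2 h had r 0.258, so these values do not settle whether the numbers pair samples. Same-numbered RNA-seq libraries had r 0.239, 0.025 and 0.190 in T99N and -0.077, 0.200 and -0.043 in wild type.

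Named pairs were the 10 of highest mean fold enrichment, the 8 with both genes higher (ranked by the smaller change), the 6 with 1 gene higher and 1 lower, the 5 most enriched with no call, and all pairs with both genes in the LUTI or canonical list. Members and lists were chosen with earlier results of these data known. Sequences came from RefSeq, build R64 of S288C. In all, 12 columns of normalized counts, the authors' fold changes and p-values, and the nucleosome and histone mark tables were not used here.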

Additional observations from a re-analysis of the deposited data

Results flagged for a closer look

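The change at 4 h against 2 h differed between T99N and wild type by the edgeR test of the difference itself. That change was higher in T99N for 209 flanking genes and lower for 193. The values below are that difference on the log2 scale, and its counts without single libraries are given above.

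Among the named pairs, the largest differences towards lower values in T99N were -5.10 for *NDJ1*, -4.69 for YPR027C, -4.42 for *HOP1*, -4.35 for *SPO13*, -4.25 for *IME2* and -4.18 for *MND1*. The value was -3.90 for *PHO92*, -3.85 for *HOP2*, -3.85 for *MER1*, -3.54 for *SPO22*, -3.53 for *PCH2* and -2.18 for *CSM4*. Their partners *MRX7* (-2.27), *YIG1* (-1.86), *WIP1* (-1.62) and *MBA1* (-1.45) were lower too.

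Of the other genes of the named pairs, the difference was -2.16 for *DIF1*, -1.96 for *GAL10*, -1.70 for *CAR2*, -1.63 for *GAL1*, -1.56 for *KIP1*, -1.52 for *HTB2*, -1.41 for *CAR1*, -1.10 for *GNP1*, -1.07 for *CRC1*, -1.03 for *SMT3*, -0.86 for *HTA2* and -0.69 for *RAS1*. Among LUTI loci of the named pairs it was -1.36 for *CFT2*, -1.34 for *MES1*, -1.21 for *ITR2*, -1.09 for *ALY2*, -1.04 for *CYC8*, -0.88 for *SNF2*, -0.67 for *AVL9* and -0.63 for *LCB5*.

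The genes of the named pairs whose change was higher in T99N were *ENO1* (5.28), YJL107C (1.39), *PST1* (1.37), *MIG1* (1.05), *JHD2* (0.80), *KCC4* (0.72), *YOP1* (0.60) and *MCM5* (0.55). Leaving out 1 replicate ended the calls of *GNP1*, *RAS1* and *YOP1* whichever it was, and for at least 1 replicate those of *HTA2*, *HTB2*, *KCC4*, *SMT3*, *MIG1*, *JHD2*, *AVL9*, *LCB5*, *MCM5* and *MRX7*. Without TMM those of *KCC4*, *MIG1*, *JHD2*, *MCM5* and *YOP1* were lost.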

How the results depend on the processing

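Without TMM (library totals alone), 208 flanking genes fell in wild type, 43 rose in T99N, the test between strains called 112 higher in T99N, and both genes rose in 99 pairs (the last chosen after seeing the data). *RUP1* was then at 0.39 on the log2 scale in wild type, against -0.01 with TMM, and the calls of *KCC4*, *UGA4*, *GTS1* and *YOP1* were lost there. With both log2 fold changes above 1, both genes rose in 16 pairs. Leaving out 1 replicate gave 3 to 98 genes higher and 17 to 166 lower in T99N, 227 to 255 and 263 to 336 in wild type, 115 to 223 higher and 114 to 171 lower in the test between strains, 146 to 220 and 185 to 273 in TL-seq, and 43 to 52 pairs with both genes higher. Without T99N replicate 1 at 2 h alone, 111 rose and 195 fell in T99N, and the test between strains (chosen after seeing the data) called 214 higher and 202 lower. With a replicate block the counts were 70 and 137 in T99N, 271 and 321 in wild type, and 201 and 180 between strains. They were 264 and 286 in UB14584, 236 and 282 in TL-seq, and 56 pairs with both higher, all within 1.5 times. DESeq2 gave 83 and 164 in T99N, 278 and 333 in wild type, and edgeR on recovered TL-seq reads 212 and 253. Of the counts under other settings, 115 stayed within 1.5 times and 14 did not, and causes were not tested. Summits within 50 or 200 bp gave 491 or 542 peaks. Chosen after seeing the data, leaving out the LUTI loci gave 68 and 135 in T99N and 243 and 316 in wild type, and the search of whole gaps for URS1 was also added then. Leaving out a replicate in UB14584 RNA-seq leaves no residual degrees of freedom and was not run, and neither was a filter on dubious gene rows, which the annotation does not mark.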
